A study of Homo sapiens with 6 samples.

Results

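The general transcription factors are the proteins that gather at a promoter before an RNA polymerase can start, and their genes were followed here through 2 h of CBP/p300 inhibition. The members were all protein-coding genes whose symbol is TAF with a number (TAF1A to TAF1D included) or starts with GTF2 or GTF3, together with TBP, BRF1, BRF2 and BDP1. In all, 67 symbols met this rule, and 54 of the 25420 genes in the tables were members. The remaining 13, all copies named TAF11L, had no entry in the tables, and 11 pseudogenes and non-coding genes of these names were left out. The rule names genes by symbol and uses no measured value, but it was set with earlier results of these data known. MOLM-13, an established human acute myeloid leukaemia line that carries an MLL-AF9 fusion and FLT3 internal tandem repeats, was kept in 10 µM C646 or in DMSO, the solvent, for 2 h, and every culture received 100 µM 4sU for the last 1 h. C646 competes with acetyl-CoA for the catalytic domain of the acetyltransferases CBP and p300. There were 3 replicates per group, and all of them were of this single line at 1 dose and 1 time. SLAM-seq alkylates the 4sU that was built into RNA, and the reverse transcriptase then puts in a C where a T would stand. A read holding at least 1 such T>C conversion is called a T>C read here and stands for new RNA, although sequencing errors give some as well.

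RNA polymerase II needs TFIIA, TFIIB, TFIID, TFIIE, TFIIF and TFIIH to start at a promoter. TFIID holds the TATA-binding protein TBP and a set of TBP-associated factors (TAFs), some of which also sit in the histone acetyltransferase complex SAGA. TBP also works with RNA polymerase I, within SL1 at the ribosomal RNA genes, and with RNA polymerase III, within TFIIIB, which TFIIIA and TFIIIC bring to the 5S and transfer RNA genes. CBP and p300 are known to contact TBP, TFIIB and other parts of this machinery.

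Between 7252597 and 10225448 reads per library fell on annotated 3′ UTRs, and between 477824 and 833410 of them were T>C reads. All 9 myeloid markers looked up, CD33, LYZ and SPI1 among them, were above 3 reads in at least 1 library, with a summed level of 3908 to 4171 CPM (reads over the TMM-scaled total of the library) in DMSO and 4055 to 4318 in C646. LYZ made up most of this sum. In all reads SPI1 was lower in C646 by a log2 fold change of -1.07 (edgeR adjusted p = 0.000835) and CD33 of -0.55 (0.00821). FLT3 was higher at 0.62 (0.00555), and the other 6 did not pass an adjusted p of 0.01. In T>C reads SPI1, CD33, FLT3, CEBPA, HOXA9 and MEIS1 were lower at that adjusted p, with log2 fold changes of -3.21 to -1.03. LYZ and CSF3R did not pass there, and MPO was not tested. The part of these markers in the results was not tested. The summed levels of the B cell, T cell, erythroid and epithelial markers reached at most 3.19 CPM. Of the 3 fibroblast markers COL1A1 alone was found, and the list's sum was 0.808 to 2.32 CPM in DMSO and 5.69 to 6.75 in C646. Measures of the libraries also moved with the treatment. Reads on 3′ UTRs made up 49.7% to 51.6% of the filtered reads in DMSO and 56.3% to 62.0% in C646, and a T>C read held 2.00 to 2.11 conversions in DMSO and 1.87 to 1.91 in C646. Their part in the results was not tested, except that scaling by the filtered reads was run as an alternative. In bulk RNA, fewer cells that express a gene and less of its RNA per cell cannot be told apart. The labels number the replicates and do not say whether they were separate cultures, so that the p-values measure the spread between these libraries, which may be technical.

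After C646, new RNA fell for about as large a share of the general transcription factor genes as of all genes. Of the 54 members, 32 had enough T>C reads to be tested (edgeR's quasi-likelihood test, scaled by all reads). New RNA of 10 of these fell at an adjusted p of at most 0.01 and at least 2-fold, beside 33.0% of the 7722 genes tested. They were TAF10, TAF9B and TAF4B of TFIID, TAF5L of SAGA, TAF1C of SL1, both subunits of TFIIE (GTF2E1 and GTF2E2), TFIIIA (GTF3A), and GTF3C2 and GTF3C5 of TFIIIC. No member was called higher, beside 2.97% of the tested genes; at an unadjusted p under 0.05 3 members (TAF7, GTF3C3 and GTF2H5) were higher and 17 lower, beside 6.02% and 54.8% of the tested genes. At the adjusted p alone, 13 members were lower and 2, TAF7 and GTF3C3, were higher, beside 38.0% and 3.83% of the tested genes. With DESeq2 in place of edgeR, 9 members were called lower and 0 higher, beside 31.3% and 2.85% of the tested genes. The median log2 fold change was -0.82 over the members and -0.83 over all tested genes, and the members' quartiles were -1.53 and 0.04 where those of all tested genes were -1.46 and -0.25. For 17 members all C646 libraries lay below all DMSO libraries and for 3 above, beside 55.8% and 6.46% of the tested genes.

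The scaling sets where 0 lies. With TMM on the T>C reads themselves, which centres the T>C reads on no change, the median of all tested genes moved from -0.83 to 0.01, 2 members (TAF10 and GTF3C5) were called lower and 6 (TAF7, GTF3C3, GTF2H5, TAF1, GTF2A1 and BRF2) higher, beside 7.60% and 9.14% of all genes tested that way. Of the 30 members tested that way, 15 were below 0 and 15 above, and 7 members had another sign than before. TAF10 was then the lowest of the members tested and TAF7 the highest, as TAF7 was before; TAF9B was not tested there.

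**Figure D1:**
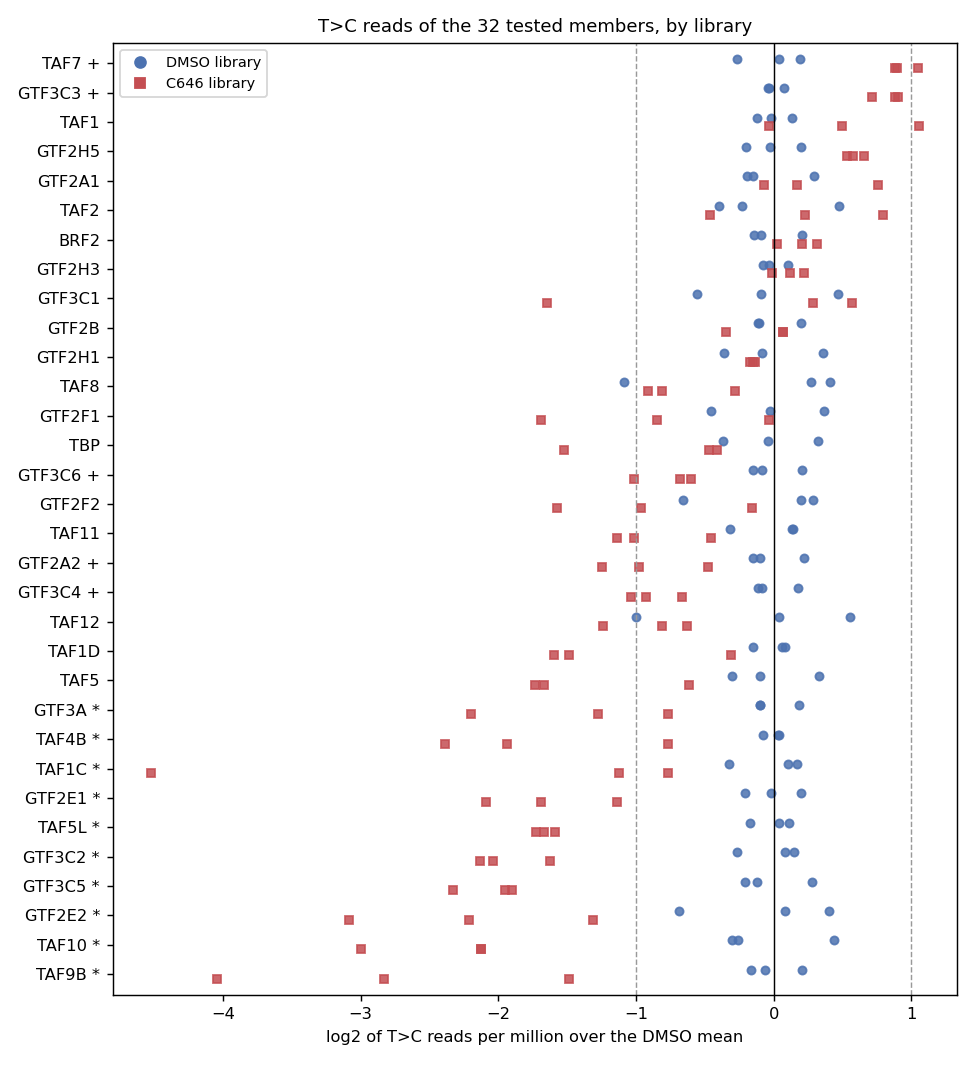
T>C reads as CPM of each library over the mean of the DMSO libraries, on a log2 scale after adding 0.1 CPM, for the 32 members tested, ordered by their fitted log2 fold change. Blue circles are DMSO libraries, red squares C646 libraries; an asterisk marks members called lower, a plus sign those at an adjusted p of at most 0.01 below the fold cutoff, and the dashed lines a 2-fold change; TAF7 and GTF3C3 lie above DMSO in every C646 library, and the 10 called members lie below.

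Some promoters are shown as a description, of members called lower, of members higher in T>C reads at the adjusted p alone and of members called higher in all reads. Each run below holds 120 bases before and 30 after the annotated start of transcription (RefSeq, GRCh38.p14), 5′ to 3′ on the strand of the gene. Capitals mark exact matches, on either strand, to the TATA box (TATAAA), the CCAAT box (CCAAT), the GC box (GGGCGG), the core of ETS factor sites (CCGGAA), the CRE half-site (TGACG), the NRF1 half-site (GCGCATG) or the YY1 core (AAGATGG). Matches of the same motif on opposite strands can overlap and then form 1 longer run of capitals. The first 4 belong to the members called lower with the lowest adjusted p, TAF10 (chr11:6612187-6612336, minus strand), TAF5L (chr1:229626093-229626242, minus strand), GTF3C5 (chr9:133030877-133031026, plus strand) and GTF3C2 (chr2:27356735-27356884, minus strand). The next pair belongs to the members whose new RNA was higher at the adjusted p alone, GTF3C3 (chr2:196799654-196799803, minus strand) and TAF7 (chr5:141320755-141320904, minus strand). The last pair belongs to the members with more total RNA, GTF2A1 (chr14:81221361-81221510, minus strand) and TAF1 (chrX:71366237-71366386, plus strand).
TAF10: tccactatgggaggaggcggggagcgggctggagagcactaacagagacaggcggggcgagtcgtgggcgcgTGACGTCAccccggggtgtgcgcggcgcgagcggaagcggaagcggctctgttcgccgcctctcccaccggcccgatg
TAF5L: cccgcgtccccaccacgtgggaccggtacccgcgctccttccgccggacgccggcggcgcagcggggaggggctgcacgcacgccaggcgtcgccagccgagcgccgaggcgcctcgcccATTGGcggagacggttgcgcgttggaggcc
GTF3C5: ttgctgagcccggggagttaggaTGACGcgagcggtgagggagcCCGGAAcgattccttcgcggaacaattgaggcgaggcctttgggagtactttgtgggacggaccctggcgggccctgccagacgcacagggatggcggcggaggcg
GTF3C2: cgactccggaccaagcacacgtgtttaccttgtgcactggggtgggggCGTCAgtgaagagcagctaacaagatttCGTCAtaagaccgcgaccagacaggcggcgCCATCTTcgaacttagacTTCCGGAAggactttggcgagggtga
GTF3C3: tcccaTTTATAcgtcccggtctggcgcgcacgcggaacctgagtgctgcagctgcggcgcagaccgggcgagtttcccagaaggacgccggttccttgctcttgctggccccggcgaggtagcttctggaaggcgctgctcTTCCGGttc
TAF7: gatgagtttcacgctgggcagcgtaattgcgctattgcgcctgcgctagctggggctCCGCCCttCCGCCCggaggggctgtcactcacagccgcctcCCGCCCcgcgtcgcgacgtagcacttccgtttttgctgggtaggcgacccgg
GTF2A1: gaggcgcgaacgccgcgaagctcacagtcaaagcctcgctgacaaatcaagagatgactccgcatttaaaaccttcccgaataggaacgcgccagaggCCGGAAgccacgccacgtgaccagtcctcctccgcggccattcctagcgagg
TAF1: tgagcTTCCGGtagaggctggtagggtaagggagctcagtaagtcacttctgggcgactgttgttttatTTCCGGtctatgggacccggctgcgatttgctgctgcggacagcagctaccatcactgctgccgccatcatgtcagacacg

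TAF10 holds a full palindrome of 2 overlapping CRE half-sites, TAF7 holds 3 GC boxes, and GTF3C2 holds 2 overlapping ETS cores and a YY1 core. GTF3C3 has a TATA box match far upstream of its start, and none of the other 7 shows one in these 150 bases. Over the whole windows of 300 bases, which were given for 44 of the 54 members, 26 members (59.1%) held the ETS core, beside 17.2% of all 35116 promoters. The TATA box was in 3 of the 44 (6.82%, beside 11.5% of all promoters) and the GC box in 23 (52.3%, beside 15786 of all 35116 promoters). The CCAAT box and the CRE half-site were each in 17 members (38.6%, beside 34.6% and 24.6%), the YY1 core in 5 (11.4%, beside 5.84%) and the NRF1 half-site in 2 (4.55%, beside 4.43%). Among the 28 members tested in T>C reads that had a window, 67.9% held the ETS core, 53.6% the GC box and 10.7% the TATA box, beside 34.5%, 71.0% and 5.35% of the 6375 promoters of tested genes. The CRE half-site was in 42.9% of these members, the CCAAT box in 35.7%, the YY1 core in 14.3% and the NRF1 half-site in 7.14%, beside 37.4%, 38.7%, 9.13% and 8.96%. The ETS core was in 5 of the 9 members called lower that had a window and in 14 of the 19 other tested members, and the CRE half-site in 5 and in 7. A match is a stretch of letters and was not tested as a binding site.

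TFIID held both ends of the range, with TAF9B the lowest of the tested members and TAF7 the highest. TAF10, a histone-fold subunit shared by TFIID and SAGA (3′ UTR at chr11:6610817-6610921 of GRCh38), had 60, 47 and 79 T>C reads in DMSO and 13, 14 and 9 in C646. The groups lay far apart, at 7.83 ± 2.44 CPM in DMSO and 1.44 ± 0.476 in C646 (SD, n = 3 each), a 5.46-fold fall (log2 fold change -2.45, SE 0.38, edgeR adjusted p = 4.9e-06). TAF10 was called lower under all 17 alternatives that tested it, the minimum of 50 T>C reads per library being the one that did not. Its 3′ UTR overlaps that of ILK on the other strand.

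TAF9B, a close relative of TAF9 that can take its place, had 13, 13 and 11 T>C reads in DMSO and 1, 4 and 0 in C646 (chrX:78129748-78131609). All C646 libraries lay below DMSO, with a fitted log2 fold change of -2.88 (SE 0.79, edgeR adjusted p = 0.00279) that rests on few reads. The call was lost without any 1 of the DMSO replicates (-2.96, -2.76 and -2.90 without replicates 1, 2 and 3), without C646 replicate 1 (-2.69) and without C646 replicate 3 (-2.23). It was kept without C646 replicate 2, at -4.43. TAF4B, a relative of the scaffold subunit TAF4, had 66, 54 and 56 T>C reads in DMSO and 10, 15 and 43 in C646 (chr18:26390013-26391686). C646 replicate 3 lay closest to DMSO, yet the groups did not overlap, and the fall was 2.87-fold (log2 fold change -1.52, SE 0.36, edgeR adjusted p = 0.000902). Without that library the log2 fold change was -2.19.

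TAF7, which binds TAF1 and holds back its acetyltransferase activity, stood at the other end (chr5:141318490-141318994). It had 138, 130 and 149 T>C reads in DMSO and 275, 267 and 327 in C646, so that every C646 library was far above every DMSO library. Its level went from 17.5 ± 2.79 to 33.8 ± 2.19 CPM (SD, n = 3 each), 1.93-fold higher (log2 fold change 0.95, SE 0.19, edgeR adjusted p = 9.49e-05), just under the fold cutoff. Without DMSO replicate 3 it passed the cutoff, at a log2 fold change of 1.06.

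TAF1, the largest TFIID subunit and its scaffold (chrX:71464047-71466005), had 24, 17 and 21 T>C reads in DMSO and 19, 30 and 55 in C646. The groups overlapped, and the log2 fold change of 0.61 (SE 0.40) had an edgeR adjusted p of 0.201. TBP, the subunit that bends TATA DNA (chr6:170572266-170572870), had 43, 20 and 26 T>C reads in DMSO and 9, 21 and 27 in C646. Scaled, the C646 libraries of TBP, at 1.19, 2.57 and 2.68 CPM, lay just below the lowest of DMSO at 2.77, and the log2 fold change was -0.74 (SE 0.43, edgeR adjusted p = 0.146), or 0.09 with scaling on the T>C reads. The other tested TFIID members did not pass the test: TAF5, a WD40 scaffold subunit, was at -1.30 with an adjusted p of 0.0116, TAF12 at -0.89, TAF11 at -0.84, TAF8 at -0.68 and TAF2 at 0.28.

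TAF5L, the SAGA counterpart of TAF5, had the smallest SE of the members called lower. Over its 2 entries (chr1:229593118-229594296, with most of the reads, and chr1:229599194-229602188) it had 113, 74 and 93 T>C reads in DMSO and 27, 28 and 38 in C646, which is 11.6 ± 1.17 against 3.59 ± 0.17 CPM (SD, n = 3 each). The C646 libraries were nearly equal, and the fall was 3.21-fold (log2 fold change -1.68, SE 0.27, edgeR adjusted p = 8.11e-06). Its SAGA partner TAF6L was too low for the T>C test, with 2, 9 and 5 T>C reads in DMSO and 0 in each C646 library. Of the TAFs of SL1, TAF1C had 69, 55 and 40 T>C reads in DMSO and 23, 32 and 2 in C646 (chr16:84177847-84178940). Its C646 replicate 3 stood apart from the rest, and the log2 fold change of -1.54 (SE 0.46, edgeR adjusted p = 0.006) became -0.95, with no call, without that library. The call was also lost without DMSO replicate 1 (-1.48), 2 (-1.45) or 3 (-1.68), and was kept at -2.16 without C646 replicate 2. Nor was TAF1C called with DESeq2 scaled by all reads (-1.51, DESeq2 adjusted p = 0.18) or with totals of all filtered reads (-1.35, edgeR adjusted p = 0.0179). TAF1D was at -1.04 with an adjusted p of 0.0105, and TAF1A and TAF1B were too low for the T>C test.

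Both TFIIE subunits, which recruit TFIIH to the polymerase, were called lower. GTF2E2, the smaller one (chr8:30578514-30578920), had 84, 37 and 82 T>C reads in DMSO and 25, 14 and 9 in C646. The groups did not overlap, at 8.34 ± 2.99 and 1.97 ± 1.23 CPM (SD, n = 3 each), and the fall was 4.34-fold (log2 fold change -2.12, SE 0.39, edgeR adjusted p = 5.17e-05). GTF2E1, the larger subunit (chr3:120781471-120783069), had 49, 28 and 33 T>C reads in DMSO and 10, 8 and 20 in C646. Its fall was 3.09-fold (log2 fold change -1.63, SE 0.43, edgeR adjusted p = 0.00218), without overlap of the groups, and the call was lost without DMSO replicate 1 (-1.51) or C646 replicate 2 (-1.42).

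None of the tested members of TFIIA (2), TFIIB (1), TFIIF (2) and TFIIH (3) was called in T>C reads scaled by all reads. These are few genes, and 33.0% of all tested genes were called lower and 2.97% higher. With TMM on the T>C reads GTF2A1 (1.16) and GTF2H5 (1.43) were called higher. GTF2B, the single protein of TFIIB that positions the polymerase on the promoter (chr1:88852638-88853212), had 103, 63 and 65 T>C reads in DMSO and 56, 81 and 100 in C646. The groups overlapped, and the log2 fold change of -0.06 (SE 0.24, edgeR adjusted p = 0.857) was 0.77 with scaling on the T>C reads. Of TFIIA, which holds TBP on DNA, GTF2A2 was lower at -0.86 (adjusted p = 0.0027), short of the fold cutoff, and was called lower without C646 replicate 3. GTF2A1, its precursor subunit that is cleaved into the alpha and beta chains (chr14:81175453-81180222), had 63, 35 and 35 T>C reads in DMSO and 46, 42 and 93 in C646 and was at 0.34 (SE 0.30, adjusted p = 0.351). Both TFIIF subunits were below 0 without passing, GTF2F1 at -0.72 and GTF2F2 at -0.79, and both were above 0, at 0.11 and 0.03, with scaling on the T>C reads. The 3 tested TFIIH core subunits were at -0.15 (GTF2H1), 0.11 (GTF2H3) and 0.60 (GTF2H5), and GTF2H5 had more T>C reads in every C646 library than in any DMSO library after scaling (adjusted p = 0.0781).

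The RNA polymerase III factors were found on both sides. TFIIIC, which reads the internal promoter of transfer RNA genes, had all its 6 subunits tested. Of these, 2 were called lower, beside 33.0% of all tested genes. At the adjusted p alone, 2 more (GTF3C4 at -0.87 and GTF3C6 at -0.76) were lower and GTF3C3 was higher, beside 38.0% and 3.83% of all tested genes. GTF3C1 was at 0.01. GTF3C5 (chr9:133057981-133058503) had 59, 63 and 49 T>C reads in DMSO and 14, 11 and 18 in C646. This was a 4.28-fold fall (log2 fold change -2.10, SE 0.36, edgeR adjusted p = 1.93e-05), with the groups far apart, and it was called lower under the same 17 alternatives as TAF10.

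GTF3C2 (chr2:27325849-27326674) had 83, 47 and 62 T>C reads in DMSO and 13, 15 and 25 in C646, a 3.86-fold fall with the groups apart (log2 fold change -1.95, SE 0.34, edgeR adjusted p = 2.15e-05). GTF3C3, a subunit of the same complex, went the other way, with 54, 38 and 39 T>C reads in DMSO and 77, 73 and 101 in C646 over its 2 entries (chr2:196763032-196764562, with 73, 64 and 94 of those in C646 and all of those in DMSO, and chr2:196780089-196780534). Every C646 library was above every DMSO library, at 9.72 ± 0.672 against 5.4 ± 0.249 CPM (SD, n = 3 each), 1.79-fold higher (log2 fold change 0.84, SE 0.26, edgeR adjusted p = 0.00776). Leaving out any library took its adjusted p to between 0.0132 and 0.0299, and with the first entry alone it was at 0.73 with an adjusted p of 0.0240. GTF3A, or TFIIIA, the zinc finger factor of the 5S ribosomal RNA gene (chr13:27435598-27435709), had 117, 73 and 75 T>C reads in DMSO and 48, 36 and 23 in C646, a 2.54-fold fall (log2 fold change -1.35, SE 0.30, edgeR adjusted p = 0.000482). The groups of GTF3A did not overlap, and its 3′ UTR overlaps that of MTIF3 on the other strand. Among the tested members, TAF1C (DNAAF1), TAF5 (ATP5MK), TAF6 (AP4M1) and BRF2 (ADGRA2) also overlap a 3′ UTR on the other strand. BRF2, the TFIIIB subunit used at promoters such as that of U6 (chr8:37843880-37844489), was at 0.19 (adjusted p = 0.41).

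Total RNA, measured by all reads, passed the test in few members. Of 39 members tested in all reads, 2 rose at both cutoffs, TAF1 and GTF2A1, beside 5.89% of the 10851 genes tested, and 0 fell, beside 1.88% (at an unadjusted p under 0.05, 9 were lower and 10 higher, beside 20.5% and 22.1%). At the adjusted p alone BRF2, TAF7 and GTF3C3 were also higher, so that 5 were higher and 3 (GTF3C5, TAF1C and TAF10) lower, beside 9.81% and 6.28%. DESeq2 also called 2 higher and 0 lower, beside 6.39% and 2.12%. The median log2 fold change was -0.09 over the members and -0.00302 over all tested genes. Scaling by the filtered reads moved these to 0.12 and 0.20, and then 4 members were called higher, BRF2 and GTF3C1 with TAF1 and GTF2A1, beside 9.34% of the tested genes.

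TAF1 had 163, 75 and 140 reads in DMSO and 397, 500 and 982 in C646. Every C646 library was well above DMSO, and C646 replicate 3 was the highest, at 97.4 CPM where the others were at 52.5 and 61.3. The rise was 4.54-fold (log2 fold change 2.18, SE 0.25, edgeR adjusted p = 3.72e-05), and without C646 replicate 3 it was still called, at 1.87. GTF2A1 had 196, 114 and 165 reads in DMSO and 310, 370 and 558 in C646, again with no overlap, a 2.41-fold rise (log2 fold change 1.27, SE 0.18, edgeR adjusted p = 0.000235). BRF2 had 277, 191 and 273 reads in DMSO and 457, 436 and 533 in C646, from 30.8 ± 5.33 to 55.6 ± 4.22 CPM (SD, n = 3 each; log2 fold change 0.85, SE 0.16, edgeR adjusted p = 0.00166). In these 3 the T>C reads passed neither cutoff when scaled by all reads, and passed both as higher with TMM on the T>C reads (TAF1 at 1.43, GTF2A1 at 1.16 and BRF2 at 1.02). All reads of TAF7 were higher by a log2 fold change of 0.67 (SE 0.13, adjusted p = 0.00151) and those of GTF3C3 by 0.62 (SE 0.15, adjusted p = 0.00644), smaller than the fold changes of their T>C reads.

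None of the 10 members called lower in T>C reads was called in all reads, where 1.88% of all tested genes were called lower and 5.89% higher. TAF10 had 1699, 1910 and 1550 reads of any kind in DMSO and 1164, 1160 and 1350 in C646, with no overlap, a 1.52-fold fall (log2 fold change -0.60, SE 0.15, edgeR adjusted p = 0.00868). Those of GTF3C5 fell 1.76-fold (-0.82, SE 0.17, adjusted p = 0.00245) and those of TAF1C 1.67-fold (-0.74, SE 0.16, adjusted p = 0.00348). GTF2E2 had 890, 530 and 754 reads in DMSO and 831, 795 and 991 in C646, with overlapping groups (0.18, SE 0.15, adjusted p = 0.357). Total RNA of TAF9B, TAF4B, TAF5L, GTF2E1, GTF3A and GTF3C2 was between -0.53 and -0.22, with adjusted p from 0.0181 to 0.408, and TBP and GTF2B were at 0.25 and 0.34 (adjusted p = 0.298 and 0.0974).

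**Figure D2:**
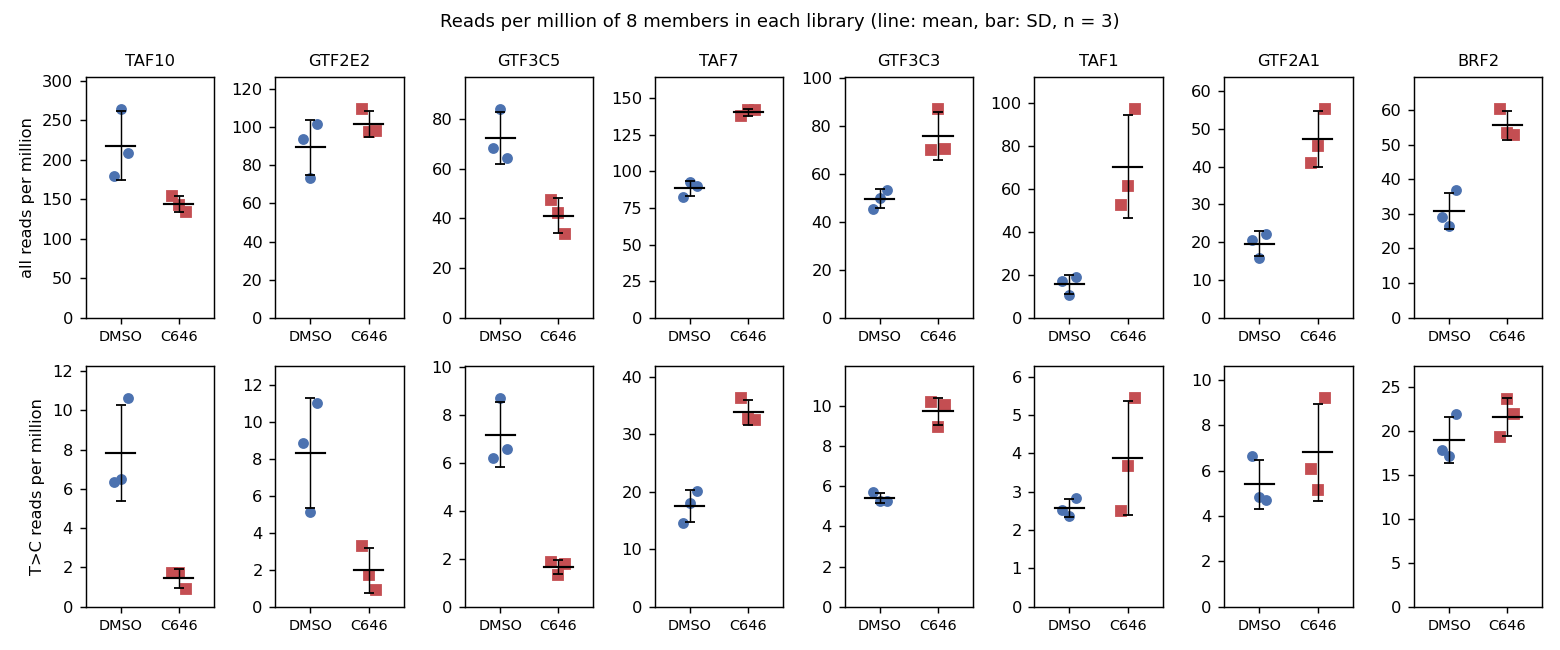
Levels of 8 members, in CPM, in each DMSO (blue circles) and C646 (red squares) library, all reads in the upper row and T>C reads in the lower row, with the mean as a line and the SD as a bar (n = 3). For TAF10, GTF2E2 and GTF3C5 the T>C reads fell, for TAF7 and GTF3C3 both kinds of reads were higher in C646, and for TAF1, GTF2A1 and BRF2 all reads were higher while the T>C reads of the groups overlapped.

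**Figure D3:**
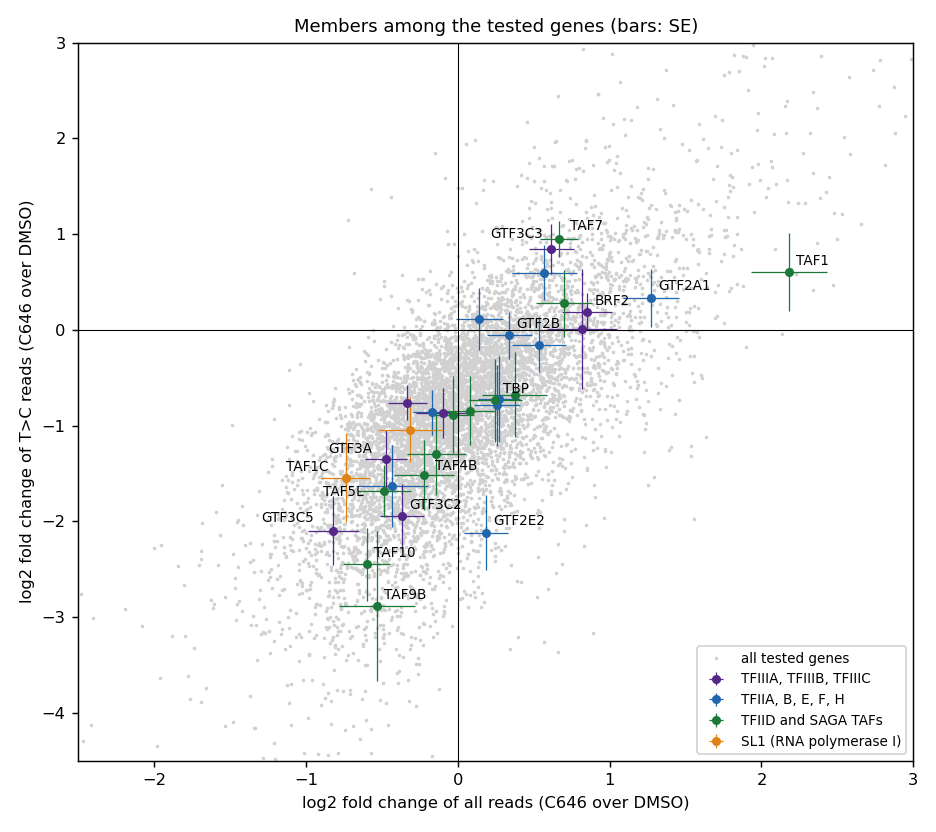
Log2 fold change (C646 over DMSO) of T>C reads against that of all reads, with bars for the SE, for the 32 members tested in both and, in grey, the 7722 genes tested (68 lie outside the axes). Most members lie below the horizontal line at 0 and near the vertical one, GTF2E2 lies low with no change of all reads, and TAF1 and GTF2A1 lie to the right.

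Members ranged widely in how much of their RNA was new without inhibitor. In DMSO the share of T>C reads among all reads of a gene ran from 3.43% ± 0.346 in GTF3A to 61.9% ± 2.71 in BRF2 (SD, n = 3 each), with a median of 13.2% over the 32 members and 13.3% over all tested genes. TAF10, at 3.70% ± 1.33, was next to GTF3A at the low end, and both are below the 10th percentile of tested genes. BRF2 was at the 97.8th percentile and TAF5L, at 39.3% ± 1.19, at the 90.4th; TAF1D, GTF3C4, TAF4B and GTF2E1 followed with 38.4% to 30.7%. In this order TAF1D did not differ beyond the spread from TAF5L, GTF3C4, TAF4B or GTF2E1. GTF3C4, TAF4B and GTF2E1 did not differ beyond it from each other, nor did GTF3A and TAF10 at the low end. TFIIE was uneven, with 30.7% ± 11.6 in GTF2E1 and 9.10% ± 1.97 in GTF2E2. The share depends on the number of T bases a read covers, and no library without 4sU was used here to give its background.

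In C646 the mean share was lower than in DMSO for 29 of the 32 members, and the fitted log2 change of the odds was below 0 for 92.0% of all tested genes. The odds of a T>C read fell at both cutoffs for 11 of the 32, beside 38.3% of the tested genes, and rose for 0, beside 0.79% (also 0 at an unadjusted p under 0.05, where 24 were lower, beside 1.88% and 64.8%). At the adjusted p alone 14 were lower and 0 higher, beside 44.8% and 1.14%, and for 21 members all C646 libraries lay below all DMSO libraries, beside 64.5%. The 11 called at both cutoffs were TAF10, TAF9B, TAF4B, TAF1, TAF5L, GTF2E2, GTF2A1, GTF3C2, GTF3C4, GTF3C5 and BRF2, of which 7 were also called lower in T>C reads. Without single libraries in turn, GTF3C4 was called in 0 of 6 fits, TAF9B in 1, GTF2A1 in 3 (lost without DMSO replicate 1 or 2 or C646 replicate 2) and GTF3C5 in 5 (lost without DMSO replicate 2), and the other 7 in all 6. The median log2 change of the odds was -1.09 over the members and -1.004 over all tested genes, with 29 of the 32 members below 0. GTF2E2 had the strongest change after TAF9B, from 9.44%, 6.98% and 10.9% in DMSO to 3.01%, 1.76% and 0.908% in C646 (log2 change of the odds -2.42, SE 0.34, edgeR adjusted p = 3.58e-06). In TAF1, T>C reads were 24 of 163, 17 of 75 and 21 of 140 reads in DMSO and 19 of 397, 30 of 500 and 55 of 982 in C646 (-1.80, SE 0.36, edgeR adjusted p = 0.000231), and that of BRF2 went from 61.0%, 64.9% and 59.7% to 31.9%, 44.3% and 41.5% (-1.33, SE 0.30, edgeR adjusted p = 0.000665). Neither pair of groups overlapped. The 3 members above 0 were TAF7 at 0.37 (SE 0.21, adjusted p = 0.132), GTF3C3 at 0.26 and GTF2H5 at 0.05. TAF7 was the single member whose share was higher in all C646 libraries, at 22.8% to 26.4% where DMSO had 17.6% to 22.2%, beside 2.18% of the tested genes.

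**Figure D4:**
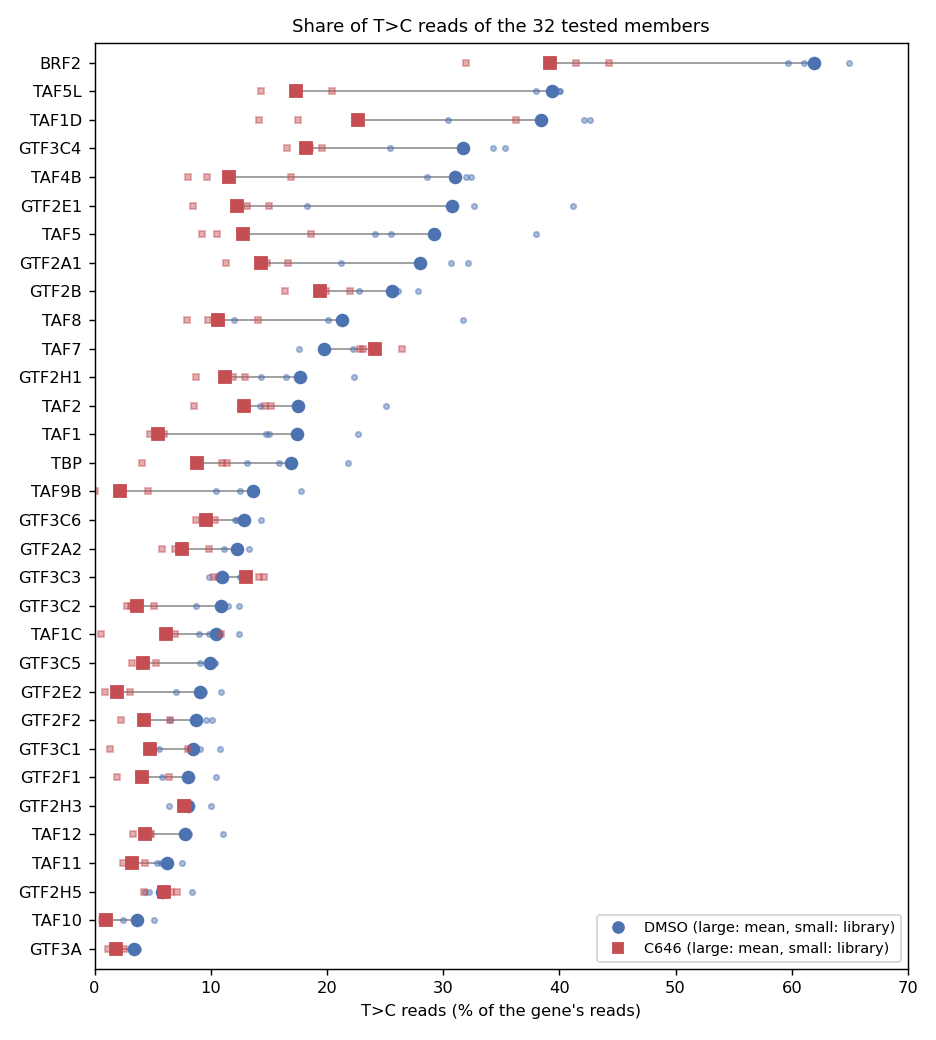
Share of T>C reads among all reads of each of the 32 tested members, in percent, with the mean of 3 libraries as a large symbol and each library as a small one, blue circles for DMSO and red squares for C646. The share in DMSO runs from 3.43% in GTF3A to 61.9% in BRF2, and TAF7 is the single member with every C646 library to the right of every DMSO library; the libraries of GTF3C3 overlap.

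The features of the 3′ UTRs that the rule did not use were set beside these values as descriptions. The 3′ UTRs of the tested members ran from 98 bases (GTF3C6) to 7187 bases (GTF2H5). Over the 39 members tested in all reads, Spearman's rho of the log2 fold change of all reads was 0.35 with the length of the 3′ UTR and 0.39 with its share of T bases, beside 0.13 and 0.36 over all tested genes. For the T>C reads of the 32 members the same values were 0.28 and 0.21, beside 0.03 and 0.29, and with the T>C share in DMSO the rho was 0.08. Between both kinds of reads, the log2 fold changes of the 32 members had a rho of 0.89, beside 0.69 over all tested genes; these values share their libraries, and T>C reads are among all reads. Multimapped reads made up at most 1.57% of the reads of any of the 32 members tested in T>C reads; of the 7 tested in all reads alone, GTF2IRD2 stood at 83.3%.

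The remaining 22 members were too low for the T>C test, and 15 of them, with at most 20 reads in every library, for any test. BDP1 of TFIIIB, GTF2H4 of TFIIH and the copy GTF2H2C_2 had 0 reads in all libraries, where 3 reads would be 0.298 to 0.416 CPM. GTF2I, the founding member of the TFII-I family, had 8, 6 and 13 reads in DMSO and 2, 0 and 12 in C646, and 4, 0 and 3 T>C reads in DMSO against 0 in each C646 library. The T>C reads were at or near the level of 3 reads, and all reads reached 1.75 CPM in DMSO and 1.19 CPM in C646, with overlapping groups. TAF4 had 3 reads in all, TAF15 5 and TAF9 10. For BDP1, GTF2I, TAF4, TAF15 and TAF9 the main 3′ end in GENCODE release 44 lies inside the annotated entries. Among the members tested in T>C reads it lies outside for BRF2, GTF2A1, GTF2B, GTF2E2, GTF2F2, GTF2H1, GTF3A, TAF1D, TAF8, TAF10, TAF11 and TAF12. What this does to the counts of those members was not tested. BDP1, GTF2H4, TAF4, TAF9 and TAF15 are listed on more than 1 contig, with identical lengths. Reads that match several contigs equally may be missing from their counts, which was not tested. GTF2H2, GTF2H2C and GTF2H2C_2 are near-identical copies whose entries overlap, and GTF2IRD2, most of whose reads were multimapped, has near-identical copies too; none of these can be told from its copies. GTF2A1L, GTF2IRD1, GTF2IRD2B, TAF13, TAF1L and TAF7L make up the rest of the untested. In all reads alone, TAF6 was at -0.66 (adjusted p = 0.0112), TAF6L at -0.87 (0.101), TAF1A at -0.52 (0.471), BRF1 at -0.41 (0.24), GTF2IRD2 at -0.34 (0.359), TAF3 at -0.24 (0.651) and TAF1B at 0.57 (0.176).

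Of 29 genes of partner proteins outside the rule, such as further SAGA and TFIIH subunits, 20 were tested in T>C reads, and 3 were called lower and 0 higher, with a median of -0.65, beside 33.0% and 2.97% of all tested genes and their median of -0.83. These were SNAPC4 (log2 fold change -2.71, SE 0.53, edgeR adjusted p = 0.000109) and SNAPC2 (-2.27, SE 0.35, adjusted p = 4e-06), subunits of the complex that recruits the polymerase to small nuclear RNA genes, and ATXN7L3 (-1.75, SE 0.28, adjusted p = 5e-06), an adaptor of the SAGA deubiquitinase. SNAPC2 had 69, 62 and 58 T>C reads in DMSO and 14, 10 and 18 in C646, and SNAPC4 had 42, 38 and 35 against 7, 10 and 1, with no overlap in either gene. In all reads 4 of 26 were called higher and 1 lower, beside 5.89% and 1.88% of all tested genes. The higher ones were CCNH (1.80) and MNAT1 (3.01), partners of CDK7 within TFIIH, TBPL1 (1.55), a relative of TBP, and SNAPC1 (1.46), and the lower one was TADA1 of SAGA (-1.05). CDK7 itself had 0 reads in all libraries. The difference between these genes and the members was not tested.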

How the data were processed

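The authors aligned the QuantSeq 3′ end reads to GRCh38 with SLAM-Dunk (slamdunk 0.4.1 in the table headers) and deposited, for each 3′ UTR entry of each library, raw counts of all reads, T>C reads, conversions and multimapped reads. They deposited the reads as CPM too, with a library's filtered reads as the total, and these totals were computed back from it. The deposited T>C reads include reads with 1 conversion, and the authors' own test is described for reads with at least 2. The conversion rates were not used, and the T content column of C646 replicate 3, which is 0 throughout, was not used; T bases come from another library's table.

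Counts were summed over the entries of each gene and tested with edgeR 4.0.16 (filterByExpr, glmQLFit, glmQLFTest) in R 4.3.3 on all genes, with Benjamini-Hochberg adjustment over all of them. T>C reads used TMM-scaled totals of all reads as library sizes, and all reads used TMM on themselves. The odds of a T>C read were tested with a factor per library and a T>C by treatment term. Genes were called at an adjusted p of at most 0.01 and a log2 fold change of at least 1 in size. The SE is the size of the log2 fold change over the square root of F. Levels in the text, in CPM, are counts over TMM-scaled totals and are not the deposited CPM. The scripts were tested on simulated data. Alternatives included DESeq2 1.42.0 and other scalings, filters and cutoffs. Figures and summaries used Python 3.11.15, pandas 2.3.3, numpy 2.4.6, scipy 1.17.1 and matplotlib 3.10.9.

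The median tested member had 40.8 T>C reads and 403 reads per library on average, and the chi-square per degree of freedom between libraries of 1 group was 7.87 to 27.7, where counting error alone gives about 1. Groups and replicate numbers come from the sample labels. The members and the lists were chosen with earlier results of these data known. Values in all 6 libraries are given for members called in T>C reads or in all reads, the 3 highest in T>C reads, and TBP, TAF1, TAF7, GTF2B and GTF2I. Of the partner genes outside the rule, those called in T>C reads are named. The partner genes named for all reads, and the counts of TAF6L, TAF4, TAF9, TAF15 and, in all reads, BRF2, were added after their values were seen.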

Additional observations from a re-analysis of the deposited data

How the results depend on the processing

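The 3 comparisons gave the members 10 lower and 0 higher calls in T>C reads, 0 and 2 in all reads, and 11 and 0 in the odds of a T>C read. With TMM on the T>C reads, 2 members were called lower and 6 higher, with a median log2 fold change of 0.00644, and 3 partner genes were called higher; GTF2B and TBP turned to 0.77 and 0.0878. The shares of all tested genes called lower and higher were 7.60% and 9.14% there. DESeq2 scaled on T>C reads gave 2 lower, 5 higher and a median of -0.0219, 3 partner genes higher, and 0.75 for GTF2B and 0.0629 for TBP, beside 7.39% and 8.57% of all genes. Totals of all filtered reads gave 2 members (3.96% of all genes) and 1 partner gene higher in T>C reads, a median of -0.60 and 0.15 for GTF2B, and in all reads 4 members higher, a median of 0.12 and 0 partner genes lower. Asking for 50 T>C reads on average left 12 members tested, with 2 called lower, a median of -0.11 and 1 partner gene lower; over all genes 36.5% were then lower and the median was -0.73, so that the members' median lay closer to 0. With glmTreat 4 members were called lower (10.8% of all genes), and plain totals gave 2 partner genes lower in all reads. At an adjusted p of at most 0.05 with no fold cutoff, 16 members were lower and 2 higher in T>C reads, 6 and 8 in all reads and 24 lower in the odds; the partner genes gave 10 lower and 1 higher, 7 and 10, and 14 lower. Over all genes 50.1% were then lower and 5.24% higher in T>C reads, 14.6% and 16.8% in all reads and 60.7% lower in the odds. Except for the cutoffs and the minimum of reads, which by construction count or test other genes, the cause was not tested.

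Leaving out 1 library at a time gave 7 to 11 members lower and 0 to 1 higher in T>C reads (24.9% to 31.8% and 2.52% to 3.15% of all genes). In all reads the medians were -0.135 (without C646 replicate 3) to 0.017 (without DMSO replicate 3), beside -0.0022 to 0.0144 over all genes. In the odds 8 to 12 members were lower (26.4% to 36.0% of all genes), with medians of -1.16 to -0.96, beside -1.063 to -0.999 over all genes. GTF2B ran from -0.127 to 0.0735 in T>C reads. The partner genes had 3 to 5 lower in T>C reads (5 without C646 replicate 1 or 3), 0 to 3 lower in all reads (1.08% to 2.89% of all genes) and 3 to 7 lower in the odds. Of the single members named, TAF1C and TAF9B lost their T>C call most often.

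Deviations of same-numbered libraries of both groups had an r of 0.030 to 0.065 across genes in T>C reads. Differently numbered libraries had -0.050 to 0.016. In all reads the values were -0.0014 to 0.231 for the same number and -0.221 to 0.148 for different numbers. The labels do not say whether equal numbers mark pairs, and the main fits did not take them as pairs. With the replicate block, 11 members were lower and 0 higher in T>C reads (median -0.83), 0 and 2 in all reads (-0.10), and 9 and 0 in the odds (-1.13). Over all genes the block gave 33.5% and 2.93% in T>C reads (-0.85), 2.14% and 6.45% in all reads, and 35.8% and 0.738% in the odds. The members it dropped in the odds were GTF2A1 (adjusted p = 0.0107) and GTF3C4 (adjusted p = 0.0200).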
